A study of Homo sapiens with 5 samples.

Results

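Translation initiation factor genes were examined in lists of transcription start sites called from PRO-seq in HUDEP-2 cells. The genes were all protein-coding RefSeq genes whose symbol starts with EIF, without the eIF2 kinases EIF2AK1 to EIF2AK4. This rule gave 52 genes, of which the 51 on chromosomes 1 to 22 and X were analysed, among 19974 protein-coding genes on the same chromosomes. PRO-seq (precision run-on sequencing) captures RNA from polymerases that were engaged on DNA when the nuclei were isolated, and the 5′ ends of that RNA can be used to call start sites. HUDEP-2 is an immortalised line of human erythroid progenitors. The study holds 5 libraries in 4 groups. Unedited cells with the wild-type genotype have 2 libraries, and the other 3 libraries come from sg1617-edited single-cell clones, 1 library each, which carry a 1 bp insertion, a 13 bp deletion or a 15 bp deletion. The guide sg1617 cuts in the enhancer of BCL11A, the repressor of the fetal globin genes, and each edited group is therefore 1 clone.

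Initiation factors bring the initiator tRNA and the mRNA to the small ribosomal subunit, let it scan to a start codon, and release it to join the large subunit. eIF2 carries the initiator tRNA and eIF2B recharges eIF2 with GTP. eIF3 is the large scaffold on the small subunit, and eIF4F, made of the cap-binding protein eIF4E, the scaffold eIF4G and the helicase eIF4A, prepares the mRNA. Several mRNAs of the translation machinery carry a terminal oligopyrimidine (TOP) start, a C at the first transcribed base followed by a run of C and T, through which the TOR kinase controls their translation.

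The calls were made on 1 alignment of HUDEP-2 cells, and the deposited lists have no column for a library. No comparison of edited with unedited cells was therefore possible, and there are no replicates. The score of every call was 0, so neither the depth nor the read support of a call is known. The lists held 28283 calls, of which 28159 lay on chromosomes 1 to 22 and X, 14057 of them forward and 14102 reverse. Promoter calls were found for the erythroid markers GATA1, KLF1, ALAS2, HBB, HBA1, HBA2, SLC4A1, RHAG and EPOR, and for 0 of 14 markers of lymphoid, myeloid, liver and neuronal cells. A list of calls gives the position of a start and not its level.

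The 5 initiation factor genes whose called base opened a TOP start are shown first, because the base at the call decides that feature, although it may differ by a base from the true start. The sequences are from RefSeq promoters of GRCh38.p14 and run from 40 bases before the called base to 20 bases after it. Capitals mark the called C and the pyrimidines that follow it.
EIF2A, chr3:150546747-150546807, plus strand: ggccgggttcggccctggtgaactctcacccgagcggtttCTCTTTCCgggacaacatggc
EIF3D, chr22:36529147-36529207, minus strand: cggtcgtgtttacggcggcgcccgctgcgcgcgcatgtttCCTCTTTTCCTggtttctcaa
EIF3F, chr11:7987300-7987360, plus strand: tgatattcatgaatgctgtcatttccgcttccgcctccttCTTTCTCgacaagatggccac
EIF4A2, chr3:186783537-186783597, plus strand: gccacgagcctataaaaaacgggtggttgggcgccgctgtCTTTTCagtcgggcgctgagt
EIF4B, chr12:53006426-53006486, plus strand: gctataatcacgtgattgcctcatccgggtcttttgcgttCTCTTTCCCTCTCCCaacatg
EIF4B, whose protein stimulates the eIF4A helicase, had the longest run, with 14 pyrimidines after the called C. The run was 10 bases at EIF3D and 6 at EIF3F, which encode eIF3 subunits. It was 7 bases at EIF2A, which encodes a carrier of initiator tRNA apart from eIF2, and 5 at the helicase gene EIF4A2. A T preceded the called base in all 5.

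Another 6 genes without a TOP start at the call are shown for contrast, the first by symbol in each of 6 roles with a call within 10 bp of the annotated start. Here the capital marks the called base alone.
EIF1, chr17:41688846-41688906, plus strand: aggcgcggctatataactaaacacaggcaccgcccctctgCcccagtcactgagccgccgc
EIF2S1, chr14:67360287-67360347, plus strand: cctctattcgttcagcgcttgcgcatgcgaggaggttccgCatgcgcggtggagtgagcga
EIF2B3, chr1:44986576-44986636, minus strand: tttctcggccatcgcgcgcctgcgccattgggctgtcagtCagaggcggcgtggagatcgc
EIF3I, chr1:32222364-32222424, plus strand: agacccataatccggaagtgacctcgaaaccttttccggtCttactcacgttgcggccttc
EIF4A1, chr17:7572788-7572848, plus strand: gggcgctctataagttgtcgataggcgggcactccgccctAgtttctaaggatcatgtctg
EIF4EBP2, chr10:70404114-70404174, plus strand: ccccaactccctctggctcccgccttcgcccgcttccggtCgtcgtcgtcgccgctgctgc
At EIF1 the called C opened a run of only 3 further pyrimidines, and at EIF3I of 2. At EIF2S1, EIF2B3 and EIF4EBP2 the called C was followed by A or G. The called base at EIF4A1 was an A, so the paralogous helicase genes EIF4A1 and EIF4A2 differed in their called base.

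A TOP start at the called base was found at 5 of the 34 called initiation factor genes with sequence around the call (14.7%). The other 9 called genes had no such sequence and could not be scored, and most of them are eIF3 genes. They were EIF2B1, EIF2S2, EIF3A, EIF3B, EIF3E, EIF3G, EIF3H, EIF3L and EIF4EBP1. Over all protein-coding promoter calls with sequence the share was 2.61% (163 of 6255). For ribosomal protein genes, the family best known for TOP starts, it was 43 of 56 (76.8%). That family was added as a scale after its values were seen. The count rests on the exact base of the call. It was 2 with all positions taken 1 base lower on the chromosome, and 0 with all taken 1 base higher. Allowing up to 2 bases to either side gave 9 and added EIF2D, EIF3J, EIF3M and EIF4E2. The commonest offset of a call from an annotated start was -1 bp, at 1471 of 7572 called protein-coding genes (19.4%) and 5 of 36 initiation factor genes, with 929 (12.3%) and 4 at 0 bp. Whether the called base is the first transcribed base was not tested. The called base was C at 58.8% of the initiation factor genes and at 50.2% of all protein-coding genes with sequence. A T stood before the called base at 64.7% and 45.9%. A pyrimidine-purine pair, as in the common initiator, lay at the call or 1 base after it at 58.8% of the initiation factor genes. Over all genes this share was 76.3%. The purine was the called base at 26.5% of the initiation factor genes and 31.4% of all genes. It was the base after the call at 32.4% and 44.9%.

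Promoter calls were found at 43 of the 51 initiation factor genes, a share of 84.3% (Wilson 95% interval 72 to 91.8). For 36 of the 43, a promoter call is an own-strand call within 500 bp of an annotated RefSeq start. The other 7 had no annotated start or strand in the tables used here, and they counted as called by a forward call within 500 bp of their left end or a reverse one at their right end. The same mixed rule gave 7572 and 1376 of the called protein-coding genes. Over all protein-coding genes 44.8% had one. The interval covers counting over genes only and has no error between libraries. The call nearest to the start lay at a median of 1 bp after it, with quartiles of -1 and 10.5 bp and a range from -104 to 56 bp, where negative values are upstream. The median over all 8948 called protein-coding genes was also 1 bp, with quartiles of -1 and 19 bp. The call lay within 10 bp of the start at 26 of the 43 genes (60.5%) and within 50 bp at 40 of 43 (93%), against 54.8% and 86.4% of all called genes.

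**Figure D1:**
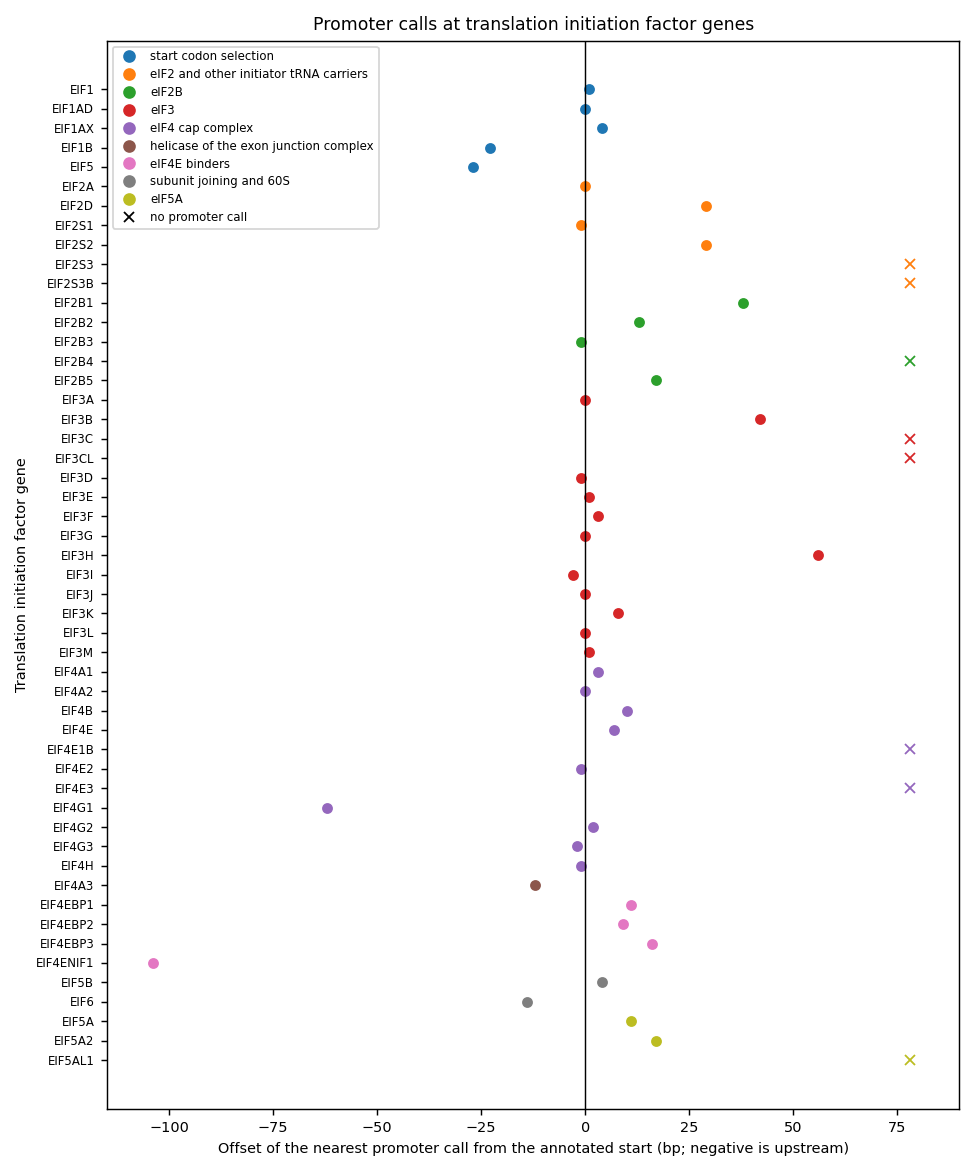
Each point is 1 of the 51 initiation factor genes, coloured by role. The horizontal axis is the offset of its nearest promoter call from the annotated start in bp. At 7 called genes without an annotated start the offset is from the called outer end of the gene. Crosses at the right mark the 8 genes without a promoter call and have no offset. Points gather near 0, and the outliers are EIF4ENIF1 at -104 bp, EIF4G1 at -62 bp and EIF3H at 56 bp.

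All 5 genes grouped under start codon selection were called. All 5 had a divergent partner, a call of the other strand 0 to 1000 bp upstream. The call at EIF1, which encodes the factor that guards the choice of start codon, lay 1 bp after the start on chromosome 17 (41688886). Its paralog EIF1B was called 23 bp upstream of its start, and the X-linked EIF1AX, which encodes eIF1A, 4 bp after it. EIF5, the gene of the GTPase-activating protein of eIF2, was called 27 bp upstream. EIF1AD, grouped here only for the eIF1A domain it is named for and not counted as an initiation factor proper, was called at the annotated base itself.

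Of the 6 genes of eIF2 and the other carriers of initiator tRNA, 4 were called. EIF2S1 (alpha subunit) was called 1 bp before its start. EIF2S2 (beta subunit), for which no start was given, was called 29 bp inside its right end. EIF2A and EIF2D, whose products bind initiator tRNA without being subunits of eIF2, had offsets of 0 and 29 bp. EIF2S3, the gamma subunit on the X chromosome, had no call on its own strand. The only call there was a reverse one, at an offset of -340 bp from its start. EIF2S3B, a close copy of EIF2S3, had no call on either strand. The RefSeq promoters of this pair matched at 282 of 300 bases (94%). Short reads may not be assigned to 1 copy where copies are this alike, so the missing calls at EIF2S3 and EIF2S3B are uncertain.

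Among the 5 genes of the exchange factor eIF2B, 4 were called and each of the 4 had a divergent partner. The offsets were 38 bp at EIF2B1, 13 bp at EIF2B2, -1 bp at EIF2B3 and 17 bp at EIF2B5. EIF2B4 had no promoter call. A single call, on the forward strand at chromosome 2 position 27370614, lay at -276 bp from its nearest start. That call is also the promoter call of SNX17, at an offset of -2 bp, a sorting nexin gene on the other strand.

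The eIF3 genes were called at 12 of 14, and 9 of the 12 had a divergent partner. EIF3J was called at the annotated start, and EIF3A, EIF3G and EIF3L at the annotated end of the gene where no start was given. EIF3D, EIF3F, EIF3I and EIF3M had calls within 3 bp of the start and EIF3K within 8 bp. EIF3B, a core subunit, was called 42 bp after its start. EIF3E and EIF3H also had no start given and were called 1 and 56 bp inside their right ends. The EIF3B start used here, at 2354827 on chromosome 7, lies inside the gene, whose left end is at 2354086. The uncalled genes were EIF3C and EIF3CL, which encode near-identical copies of 1 subunit on chromosome 16 and had no call on either strand. Reads of such copies can map to both, so the absence of calls there is uncertain. EIF3G has a forward call near its left end and a reverse call at its right end. Its strand is not given in the tables used here, so it counts as called but enters no count of own-strand calls. Its divergent partner was sought from the reverse call, and none was found.

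Of the 11 genes grouped under the eIF4 cap complex, 9 were called and 8 of these had a divergent partner. The cap-binding gene EIF4E was called 7 bp after its start, and EIF4E2, which encodes a related cap-binding protein that represses translation, 1 bp before it. EIF4E1B and EIF4E3, the remaining genes of the eIF4E family, had no call on either strand, 500 bp flanks included. The scaffold genes had offsets of -62 bp (EIF4G1), 2 bp (EIF4G2) and -2 bp (EIF4G3). Calls lay 3 bp after the start at EIF4A1, at the start of EIF4A2, 10 bp after the start of EIF4B and 1 bp before that of EIF4H. EIF4A3, which encodes the related helicase of the exon junction complex, was called 12 bp upstream.

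All 4 genes grouped under eIF4E binders were called. EIF4EBP1, EIF4EBP2 and EIF4EBP3, the repressors released from eIF4E by TOR signalling, had offsets of 11, 9 and 16 bp. Of these only EIF4EBP2 had a divergent partner. The offset of EIF4EBP1 was taken from its left end, since no annotated start was given. EIF4ENIF1, which encodes a transporter of eIF4E into the nucleus, had an offset of -104 bp, the farthest of the 43. The EIF4ENIF1 start used here, at 31489842 on chromosome 22, lies inside the gene, whose right end is at 31493568. The call, at 31489946, is therefore inside the gene too. EIF5B, the GTPase gene of subunit joining, was called 4 bp after its start, and EIF6, whose product keeps the large subunit free, 14 bp before it. EIF5A and EIF5A2, which encode the hypusine-carrying factor that helps elongation, were called 11 and 17 bp after a start. EIF5AL1, a close relative of EIF5A, had no call.

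A divergent partner was found at 37 of the 43 called initiation factor genes, a share of 86% (Wilson 95% interval 72.7 to 93.4). Over all called protein-coding genes the share was 66.6%. The distance to the partner had a median of 208 bp with quartiles of 143 and 261 bp. It ran from 80 bp at EIF1AD to 810 bp at EIF3B. The EIF3B call, at 2354869, lay inside the gene, and its partner, at 2354059, lay just before the gene's left end at 2354086. The median over all 5962 partners was 177 bp with quartiles of 118 and 279 bp, so most of both ranges overlapped. The 6 called genes without a partner were EIF3F, EIF3G, EIF3I, EIF4B, EIF4EBP1 and EIF4EBP3.

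**Figure D2:**
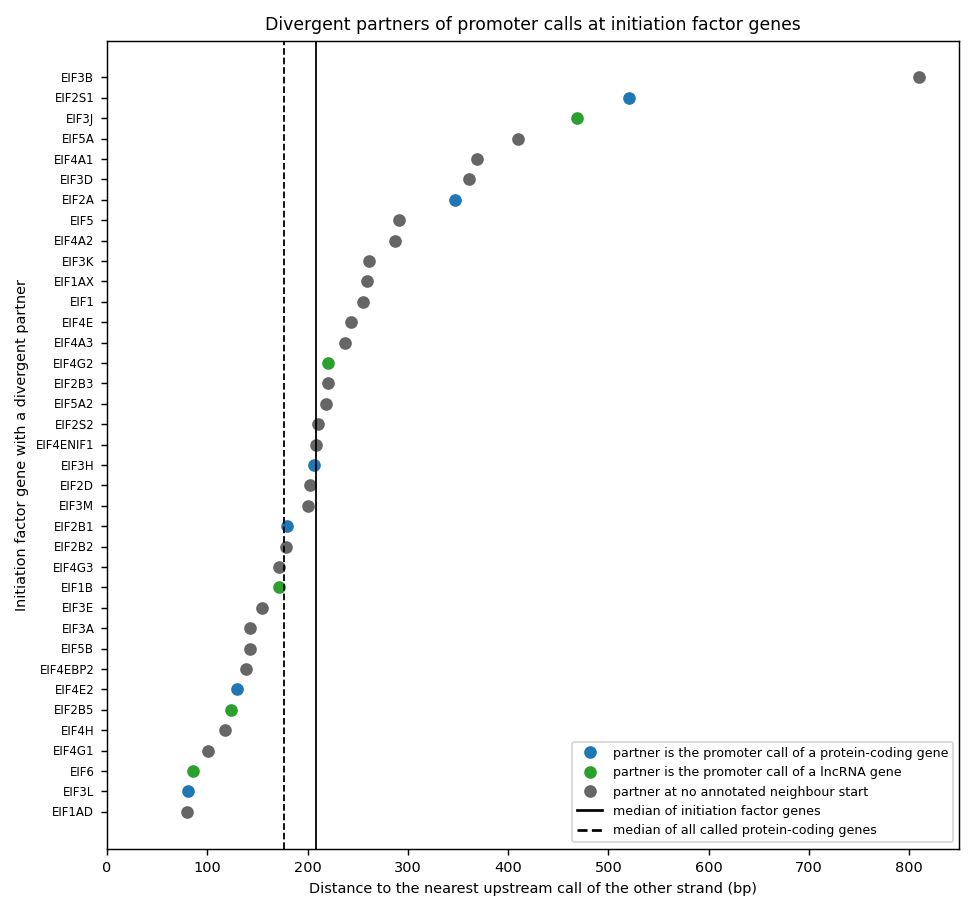
Each point is 1 of the 37 initiation factor genes with a divergent partner, ordered by the distance in bp on the horizontal axis and coloured by what the partner call belongs to; vertical lines are the medians of these genes (solid, 208 bp) and of all called protein-coding genes (dashed, 177 bp). The partner was the promoter call, within 500 bp of the start, of a protein-coding gene at 6 genes and of a long non-coding RNA gene at 5. EIF3B at 810 bp, measured from a call inside the gene, stands apart.

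In 6 cases the partner was the promoter call of a protein-coding neighbour, so 1 pair of calls served both genes. These pairs were EIF2A with SERP1, EIF2B1 with GTF2H3, EIF2S1 with ATP6V1D, EIF3H with UTP23, EIF3L with ANKRD54, and EIF4E2 with TIGD1. The closest starts were those of EIF3L and ANKRD54, 78 bp apart, and their calls were 81 bp apart. EIF2S1 and ATP6V1D, which encodes a subunit of the vacuolar proton pump, had starts 524 bp apart and calls 521 bp apart. At EIF1AD the neighbour BANF1 was called at 66002492, yet a nearer forward call at 66002237 was the partner. EIF3I and TMEM234 have starts 54 bp apart on opposite strands, and TMEM234 had no promoter call. In 5 further genes the partner counted as the promoter call of a long non-coding RNA gene, since it lay within 500 bp of that gene's start. It lay 10 bp from the start of EIF2B5-DT and farther from the others. The offsets were 186 bp at EIF1B-AS1, 222 bp at EIF3J-DT, -153 bp at LOC101928053 (at EIF4G2) and -379 bp at FAM83C-AS1 (at EIF6). Whether these calls mark the starts of those RNA genes was not tested. The remaining 26 partners lay at no promoter call of an annotated neighbour.

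Own-strand calls were counted over each gene and 500 bp to either side, and most called initiation factor genes had only their promoter call. There was 1 call at 29 of the 42 called genes with 1 assigned strand, and 2 or more at 13 (31%, Wilson 95% interval 19.1 to 46). The strand came from RefSeq for 36 of the 42 and from the end that carried the call for the other 6 (EIF2S2, EIF3A, EIF3E, EIF3H, EIF3L and EIF4EBP1). The share over all called protein-coding genes was 29.2%, so this share was near the background. Calls on either strand in or near the 51 genes numbered 129, 77 of them forward and 52 reverse, and 70 without the margin of 500 bp. The calls were unevenly spread: 3 genes, EIF4A2, EIF1 and EIF4A1, had 7 or more, while 0.65% of all called protein-coding genes (58 of 8921) had that many. Their lengths, 6321, 3784 and 6182 bp, were below the median of 20753 bp for the initiation factor genes.

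**Figure D3:**
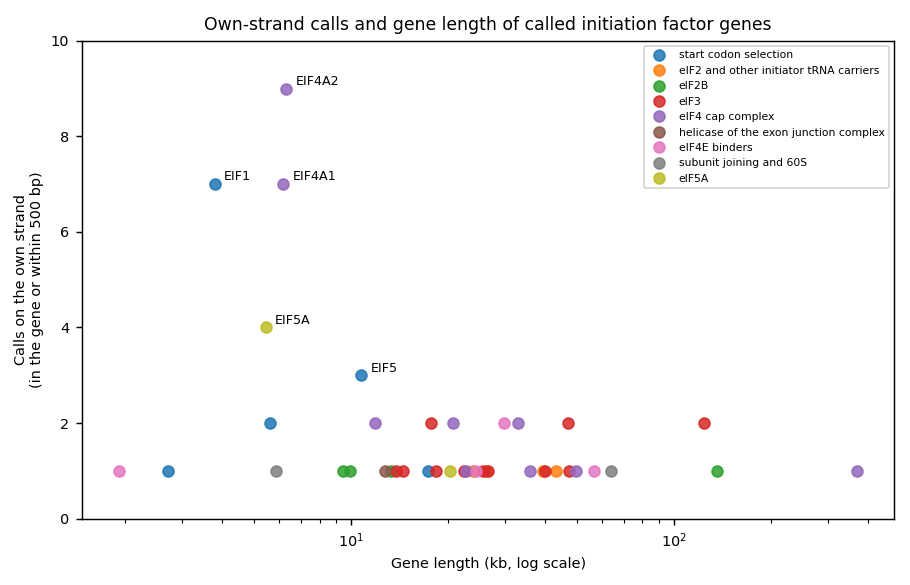
Each point is 1 of the 42 called initiation factor genes with 1 strand, taken from RefSeq for 36 and from the called end for 6, with gene length in kb on a log axis and the number of calls on the gene's own strand on the vertical axis, coloured by role. EIF4A2 with 9 calls, EIF1 and EIF4A1 with 7 each, EIF5A with 4 and EIF5 with 3 stand above the rest, which have 1 or 2, and all 5 are under 11 kb long.

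EIF4A2 had 9 calls on its own strand, or 1.42 per kb, and 0.247% of all called protein-coding genes had at least as many. Counted from the start on chromosome 3 (186783577), they lay at 0, 625, 1221, 3235, 3799, 4096, 5738, 6243 and 6613 bp, the last 293 bp past the gene's end. The call at 1221 bp lay 2 bp inside the 5′ end of SNORD2, a small nucleolar RNA (snoRNA) gene in the host. Those at 3235, 3799 and 4096 bp lay inside SNORA81, SNORA63 and SNORA4. SnoRNAs guide chemical modification of ribosomal RNA, and most human ones are cut from introns of host transcripts.

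EIF4A1 had 7 calls, at -316, 3, 1887, 3986, 5130, 6270 and 6612 bp from the start. The middle 3 fell within 1 bp of the 5′ ends of SNORA48, SNORD10 and SNORA67, and the last 2 lay 89 and 431 bp past the end of the gene. EIF1 also had 7 calls, at 1, 687, 2986, 3450, 3716, 3976 and 4241 bp. No snoRNA gene is annotated inside EIF1, so its run differs from those of EIF4A1 and EIF4A2 in that respect. The last 5 EIF1 calls lay within 1000 bp of its end, 2 of them 193 and 458 bp past it.

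EIF5A had 4 calls and 6 annotated starts. Its first 3 calls lay -42, 11 and 23 bp from the nearest annotated start, and the fourth lay 401 bp past the end. At EIF5 the calls after the promoter call lay 10171 and 10450 bp from the start, near the end of its 10789 bp. At least as many calls as in EIF5A were found at 3.69% of all called genes, and at least as many as in EIF5 at 9.54%. Neighbouring calls of 1 strand were nowhere closer than 206 bp, so the spacing within a run has a floor in the lists themselves. Whether each call in a run marks initiation was not tested.

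**Figure D4:**
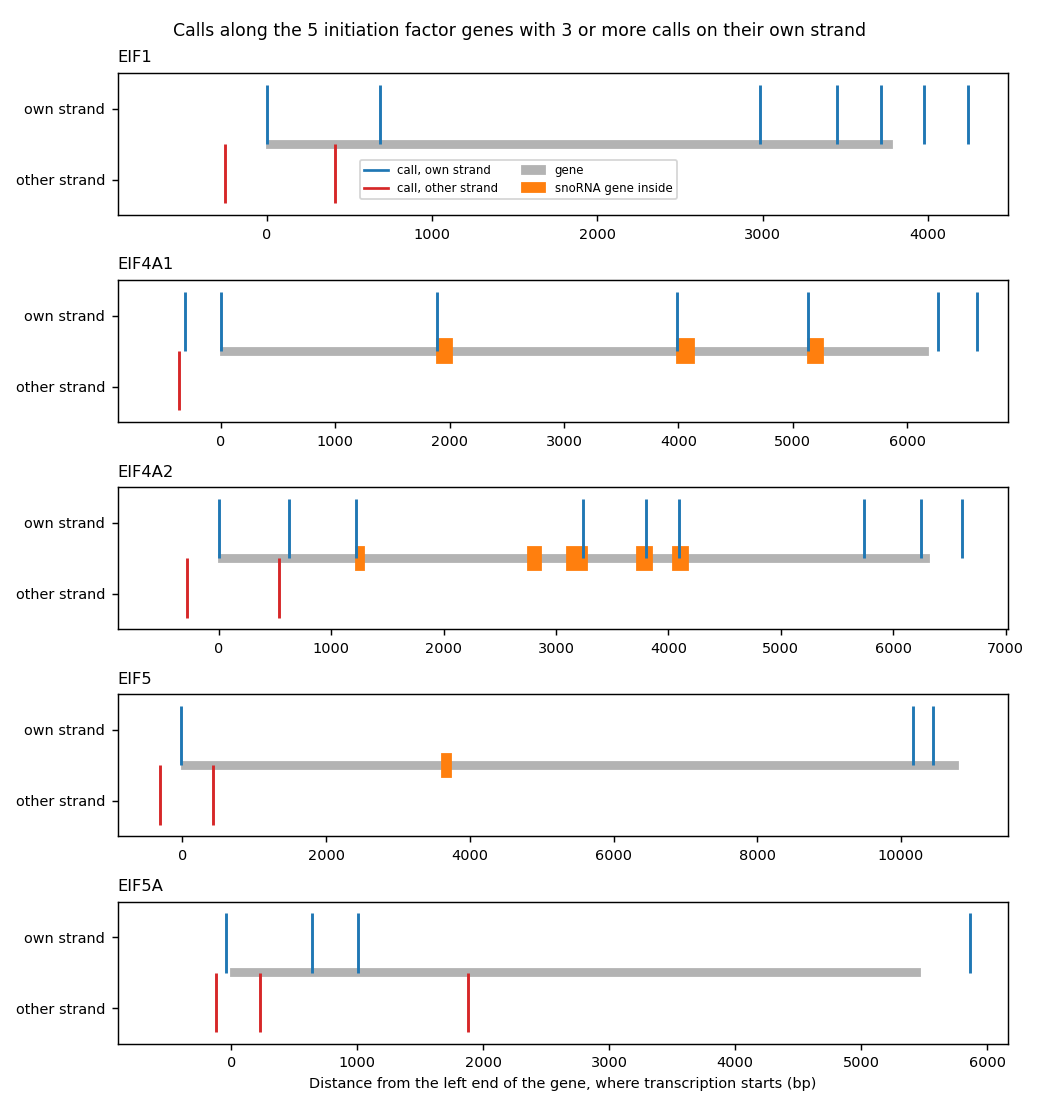
Calls along the 5 genes with 3 or more calls on their own strand, with distance from the left end of the gene in bp; grey bars are the genes, orange boxes snoRNA genes inside them, and blue and red lines calls on the gene's own and the other strand. In EIF4A1 3 calls stand at the left edges of snoRNA genes, in EIF4A2 4 calls stand in or at them, and in EIF1 the calls gather at the end of the gene.

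The other 8 genes with more than 1 call had 2 each. In EIF4G1 and EIF4G2 the second call lay 0 and 1 bp from the 5′ ends of SNORD66 and SNORD97. In EIF4E2 it lay 22 bp from a further annotated start. In EIF1AD it lay 333 bp upstream. EIF3A, EIF3H, EIF3K and EIF4EBP1 had second calls inside the gene, at 929, 10554, 14929 and 1063 bp. Of all 75 calls on the own strand, 47 were promoter calls, 9 lay at snoRNA genes, 13 elsewhere in the gene and 6 past its end.

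The called initiation factor genes host 13 annotated snoRNA genes, and 6 of these (46.2%) had a call within 10 bp of their 5′ end. Among 400 snoRNA genes in other called protein-coding genes, 80 (20%) had one. The 13 sit in only 6 host genes, so they do not count as independent. A call lay in or near 9 of the 13 and 93 of the 400. The snoRNA genes without a call were SNORA19 and LOC124900296 in EIF3A, SNORA28 in EIF5 and SNORA63B in EIF4A2.

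Motifs were searched on both strands of the RefSeq promoters, 250 bases before to 50 after each start, at the 36 called initiation factor genes that have an entry. The E-box CACGTG, the site bound by MYC and USF proteins, was in 11 of 36 (30.6%), against 11.6% of 7572 called and 8.92% of all 15812 protein-coding promoters. The 14 matches all began upstream of the call, from -232 to -5 bp, and in 6 genes a match lay within 100 bp of it. The match began at -32 bp in EIF4B, -31 bp in EIF1B and -29 bp in EIF4EBP3. In the EIF4B sequence printed above it is the cacgtg near the left end.

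The other motifs had shares closer to those of called promoters. GGGCGG, the core of the GC box, was in 75% of the called initiation factor promoters and 76.3% of all called promoters. CCAAT was in 41.7% and 39.1%, and the ETS-type motif CCGGAAG in 27.8% and 24.5%. TATAAA was in 2 promoters, EIF4A2 and EIF4EBP3, or 5.56% against 4.45%, and at EIF4A2 it began 30 bp before the call. GCGCATGC was in 5.56% against 7.38%, ATGGCGGC in 8.33% against 8.44%, and TGACGTCA in 0 of 36 against 3.98%. Over all 15812 promoters the shares were 59.9% for GGGCGG, 36.4% for CCAAT, 14.5% for CCGGAAG, 9.42% for TATAAA, 4.43% for GCGCATGC, 4.77% for ATGGCGGC and 2.66% for TGACGTCA. The median GC content was 64.7% at called initiation factor promoters and 66% at all called ones. The 7 uncalled initiation factor promoters with sequence ranged from 47.7% at EIF5AL1 to 75.7% at EIF4E1B. A motif match is a description of the sequence and not of binding.

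Other genes of translation and its control were called at 40 of 49 (81.6%, Wilson 95% interval 68.6 to 90), so the interval overlaps widely with that of the initiation factors. Calls were found at 8 of 9 elongation genes, 4 of 6 termination and recycling genes, 5 of 6 scanning and reinitiation genes and 7 of 9 poly(A) and cap-binding genes. They were found at 9 of 11 genes of TOR and MNK control, 4 of 4 of eIF2 control, 1 of 2 of eIF5A modification and 2 of 2 mitochondrial initiation factors. The genes without a promoter call were EEF1A2, GSPT2, PELO, MCTS1, PAIP2B, CYFIP1, TSC2, RHEB and DHPS. PELO, MCTS1 and DHPS each had 1 own-strand call in or near the gene, but farther than 500 bp from an annotated start. With a window of 1000 bp, 42 of 49 genes (85.7%) were called. EEF1A2 encodes the elongation factor form of muscle and neurons, and DHPS the enzyme that starts the hypusine modification of eIF5A. The nearest call of the 40 called genes had a median offset of 0 bp, and 30 of the 40 had a divergent partner at a median of 224 bp. The most own-strand calls at any of these genes was 9, as many as at EIF4A2, so long runs were not particular to the initiation factors.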

How the data were processed

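PRO-seq start sites of HUDEP-2 cells were read from 2 lists, 1 per strand. Per the file headers, the authors called them with TSScall on 1 sorted, de-duplicated alignment. Its name matches no sample title, and the version and read minimum of the caller are not stated in these sources. The build was hg38 and the tools were deepTools 3.5.4, SAMtools 1.17, Picard and BWA 0.7.16a, per the submitters' processing notes. The deposited score was 0 in every call, and the end coordinate of each 1-base interval was taken as its 1-based position.

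Gene ends, starts and promoter sequences came from RefSeq tables of GRCh38.p14, which has the primary coordinates of hg38. The promoter table held 43 of the 51 genes; the others (EIF2S2, EIF3A, EIF3CL, EIF3E, EIF3G, EIF3H, EIF3L and EIF4EBP1) counted as called where a call lay within 500 bp of an outer end, forward at the left or reverse at the right. SnoRNA strands were taken from the host gene. One gene of the rule on another chromosome was not analysed here. Members, lists and motifs were chosen with earlier results of these data known. Every initiation factor gene could be named, with the uncalled genes of the other translation lists and neighbours with a start within 1000 bp. Printed sequences followed the rule given beside them. One erythroid marker is not reported here. No test was made; shares carry Wilson 95% intervals. Scripts were tested on simulated calls. Scripts ran in Python 3.11.15 with Biopython 1.88, matplotlib 3.10.9, pandas 2.3.3 and numpy 2.4.6.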

Additional observations from a re-analysis of the deposited data

How the results depend on the processing

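Of 27 alternatives, 20 kept the value close to the main one, and 7 moved it. The share of initiation factor genes with a promoter call stayed between 80.4% and 89.6% over windows of 100 and 1000 bp, the outer gene ends, any call in the gene, no near-identical copies, fewer members, and, chosen after seeing the data, only genes in the promoter table. The 89.6% came from leaving out the copies EIF3CL, EIF5AL1 and EIF2S3B, which all had no promoter call, so that share could only rise. EIF3C and EIF2S3, also without a promoter call, stayed in. The share of all protein-coding genes was 41.6% at 100 bp, 46% at 1000 bp and 42.2% by outer ends. Calls in or near the genes fell from 129 to 70 without the margin of 500 bp. The count of TOP starts was 2 with positions 1 base lower, 0 with positions 1 base higher, 4 with at least 6 pyrimidines, and 9 within 2 bases to either side. Genes with 2 or more calls on their own strand numbered 10 to 11, including 11 without calls at snoRNA 5′ ends, an alternative chosen after seeing the data. Depth limits every absence, since a call needs reads and none are given. No paired analysis was possible because the lists have no column for a library, and for the same reason no library could be left out.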

Other observations

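Calls were rare at pseudogenes in general and also at those named after initiation factors. Of 89 such pseudogenes 1 (1.12%) had a call, and of all 16458 pseudogenes 479 (2.91%) had one. The called one was EIF1AXP1 on chromosome 1, with a reverse call at 16686252, 3 bp past its right end. No test of this difference was made.

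Beyond the margin of 500 bp, further calls on the own strand followed several genes. EIF4A2 had calls 762 and 1081 bp past its end and EIF4A1 had one at 845 bp. EIF6, EIF3A and EIF4G2 had calls 841, 882 and 941 bp past their ends. Whether these belong to the gene or to a later unit was not tested.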
